A study of Drosophila melanogaster with 2 samples.

Results

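Peaks of the zinc finger protein Sequoia, the product of the gene seq, that lay between genes and away from every annotated gene start were examined. Of the 4099 conservative peaks on the 7 chromosome arms, 362 (8.83%, exact Clopper-Pearson 95% interval 7.98 to 9.74) had a summit over 2000 bp from the transcription start site (TSS) of any annotated transcript and inside no annotated gene, with transposable elements left out of the annotation. These 362 are called distal intergenic peaks, and they were chosen by position alone, not by signal. The data came from ChIP-seq, in which DNA bound by a protein is recovered with an antibody and sequenced. Whole embryos of Drosophila melanogaster, 0 to 24 h old and of the strain labelled seq-GFP, carried a fusion of Sequoia with enhanced GFP, which an anti-GFP antibody pulled down from sonicated chromatin. The labels give 1 group of 2 biological replicates, both with this fusion, and a control alignment was used in peak calling. The source label also names an insertion targeting seq. What drives the fusion and how many embryos were pooled is not given in the sources used here. A whole-embryo library does not show which cells or which hours a peak came from. With 1 group there was no comparison between conditions, so the distal intergenic peaks are described beside the other peaks and beside the sequence in which they could have been found.

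Sequence between genes holds enhancers, short stretches to which transcription factors bind and from which they raise or lower transcription of a gene that may lie on either side, near or far. In Drosophila, genes that pattern the embryo and genes that set neuronal identity are known for many such elements spread over long intergenic stretches, while genes used in every cell are often regulated close to the start. Sequoia is known from its part in the growth and targeting of axons and dendrites, and the positions and signals of peaks do not show whether a peak acts on any gene named here.

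Summit sequences of 5 of the 10 strongest distal intergenic peaks are printed here, as the sequences behind values described below. Each is the summit with 50 bp on either side, called the summit window, from the forward strand of the dm6 (Release 6) reference. Capitals mark any match to the 9 motifs that were searched, of which AGATAA, the core bound by GATA factors, was the match present. The first 3 come from the stretch between RFeSP and chinmo (chr2L:1638733-1638833, chr2L:1632788-1632888 and chr2L:1643411-1643511), the fourth from between COX7AL2 and CG31668 (chr2L:2202382-2202482) and the fifth from between CG9922 and foxo (chr3R:14053554-14053654).
chinmo stretch, signal 726.6: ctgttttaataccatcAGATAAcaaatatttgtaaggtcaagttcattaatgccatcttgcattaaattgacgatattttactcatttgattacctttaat
chinmo stretch, signal 635.5: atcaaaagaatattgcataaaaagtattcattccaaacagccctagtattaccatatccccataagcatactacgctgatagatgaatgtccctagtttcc
chinmo stretch, signal 588.1: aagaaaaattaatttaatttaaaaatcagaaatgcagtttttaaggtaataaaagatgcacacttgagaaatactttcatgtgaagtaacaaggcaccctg
CG31668 side, signal 498.6: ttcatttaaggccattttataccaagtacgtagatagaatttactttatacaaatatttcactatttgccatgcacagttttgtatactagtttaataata
foxo side, signal 469.9: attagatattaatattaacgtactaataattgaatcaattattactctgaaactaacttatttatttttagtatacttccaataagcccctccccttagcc
The GC content of these 5 windows was 26.7%, 35.6%, 27.7%, 25.7% and 26.7%, against 40.9% over all windows of that length in the intergenic sequence that the rule could have kept. The other 5 of the 10 strongest ranged from 26.7 to 56.4%, and the median GC was 36.6% in the strongest 90 members and 36.6% in the weakest 90.

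Distal intergenic peaks were thinly spread. That eligible sequence came to 31.1 Mb, in which the peaks had a density of 11.7 per Mb (exact Poisson 95% interval 10.5 to 12.9). Distal intronic peaks, which are over 2000 bp from any TSS but inside a gene, had 20.7 per Mb (19.3 to 22.1) in 42.2 Mb. Intervals cover counting error only, and peaks are not replicates, so no test is given between classes. The density of distal intergenic peaks fell off with distance from the nearest TSS. Over 2000 and up to 5000 bp there were 198 peaks, 21.6 per Mb (18.7 to 24.8). Up to 10000 bp there were 98, or 13.3 per Mb (10.8 to 16.3), and up to 20000 bp 56, or 10.8 per Mb (8.14 to 14). Beyond 20000 bp 9.36 Mb held 10 peaks, 1.07 per Mb (0.512 to 1.96). The 31.1 Mb included 2.2 Mb of the Y chromosome, where the list held 0 peaks of any class. It also included 1.81 Mb, with 0 members, in gaps that lacked a protein-coding neighbour on a side. How much of either lay beyond 20000 bp was not counted, nor was the share of the Y in the intronic sequence. In each of the 4 ranges the density in introns was the higher of the pair, at 30.4, 24.1, 17.2 and 6.22 per Mb. The nearest TSS lay at a median of 4634 bp, and for 122 of the 362 (33.7%) it belonged to a noncoding RNA gene, 9 of these tRNA genes.

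**Figure D1:**
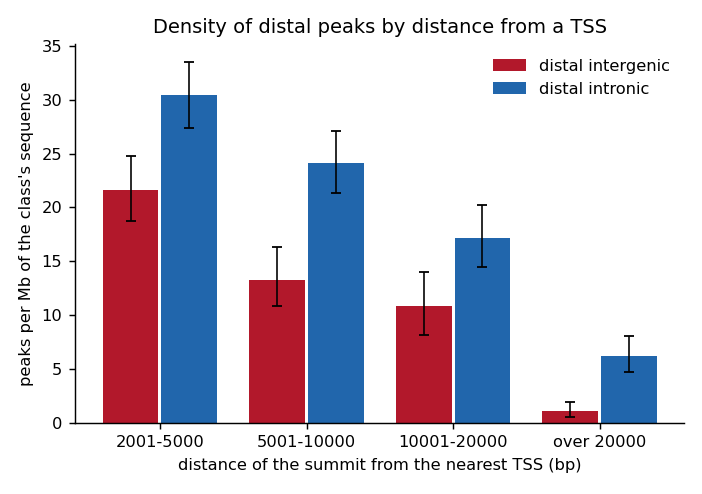
Density of distal peaks, in peaks per Mb of the sequence that belongs to the class, in 4 ranges of distance between the summit and the nearest TSS, for distal intergenic (red) and distal intronic (blue) peaks. Bars start at 0 and error bars are exact Poisson 95% intervals. The sequence of both classes includes that of the Y chromosome. Intergenic density goes from 21.6 per Mb at up to 5000 bp to 1.07 per Mb beyond 20000 bp, below intronic density in each range.

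The 2000 bp limit cut through a run of similar peaks. The nearest members inside it lay 2021 bp from the TSS of Act87E, an actin gene (signal 84), 2021 bp from that of CG9928 (77.2) and 2028 bp from that of CG10357 (130.6). The nearest intergenic peaks outside it lay 1993 bp from CG32645 (signal 133.2), 1988 bp from a noncoding RNA gene (103.2) and 1986 bp from Cipc (172.0). In the 500 bp on either side of the limit there were 52 intergenic summits beyond it and 66 within it. The member farthest from any TSS was 3L:1139388-1139777, 37693 bp from the TSS of bab2 but 846 bp beyond the end of that gene. Its other neighbour is bab1, and both genes encode BTB transcription factors known from limb and ovary. Its signal of 73.2, with 39.3 for replicate 1 and 36.4 for replicate 2, placed it among the weaker members.

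Across the arms, 3L held the most members (105, 14.2 per Mb of eligible sequence, 11.6 to 17.2), and X held few for its number of peaks. On 2L there were 76 (14.9 per Mb, 11.7 to 18.7), on 3R 76 (12.8, 10.1 to 16) and on 2R 65 (10.6, 8.18 to 13.5). On X 36 of 739 peaks were distal intergenic (4.87%, against 8.17 to 11.9% on the long arms of chromosomes 2 and 3), at 8.69 per Mb (6.09 to 12). On the Y chromosome the conservative list held 0 peaks of any class. Its 0 members in 2.2 Mb, for which 3 counts allow up to 1.37 per Mb, are thus not particular to distal intergenic peaks.

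Chromosome 4, which is small and rich in heterochromatin, had 12 peaks, of which 4 were distal intergenic. The strongest, at 4:497817-497981, lay 3897 bp before the start of zfh2, a zinc finger homeodomain gene, with a signal of 310.3 (replicate 1 at 204, replicate 2 at 116). That at 4:982778-983167 lay between fuss and toy, a Pax6 gene of eye and brain, with 130.6 (72.3 and 61.6). The other 2 lay between dati, a zinc finger gene, and lgs, a coactivator gene of Wingless signalling. Their signals were 96.5 at 4:434329-434718 (47.2 in replicate 1, with no summit near it in replicate 2) and 75.8 at 4:411946-412335 (33.8 and 51.0). The zfh2 peak thus stood above the other 3 in replicate 1 and above the 2 that had a value in replicate 2.

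By the authors' signal, a value that ranks peaks within 1 list, distal intergenic peaks were weaker than the list as a whole. Their median signal was 99.1 (exact 95% interval of the median 94.4 to 108.5), against 117.1 (114.7 to 119.3) for all conservative peaks, 111.8 (107.0 to 115.3) for distal intronic and 128.7 (124.6 to 133.7) for promoter peaks within 500 bp of a TSS. In the own list of replicate 1, however, the 289 distal intergenic peaks of that list had the median of all its peaks, 69.5. In that of replicate 2 the 209 had 60.9 against 69.6. These peaks were classed anew in each own list and are not the 362 members. The middle of the distribution of the 362 ran from 83.2 to 145 and the whole from 2.84 to 1309. Of the 362, 28 (7.73%) were among the 500 strongest peaks, where 12.2% of all peaks stand, and 4 were among the 100 strongest. At the other end 19 members (5.25%) had a signal under 60, against 6.88% of all peaks and 6.76% of distal intronic ones. Of the 19, 18 lay within 400 bp of another conservative summit. None of the 19 had a summit of its own within 100 bp in both replicates. Of all members 48 had another summit within 400 bp, and 24 pairs of members overlapped, so these share sequence. The share of all peaks with such a neighbour was not counted.

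The strongest member, ranked 5 of all 4099 peaks, was 2R:13035162-13035508. It lay 27421 bp from Su(z)2, a Polycomb group gene related to Psc, and 9363 bp from CG13323, both of which turn their ends to it. Replicate 1 gave it 652 and replicate 2 gave it 661, nearly the same value, and in the conservative list it had 1309. The same stretch held 3 more members with signals of 171.8, 93.1 and 81.7. On the other side of the Psc and Su(z)2 pair, the stretch between CG13321 and Psc held 4 members with signals of 252.1, 227.2, 115.8 and 67.8, all with summits within 1375 bp and each within 400 bp of another.

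The next 3 strongest members all lay between RFeSP, the gene of the Rieske protein of the mitochondrial respiratory chain, and chinmo, the gene of a BTB zinc finger protein known for temporal identity in neurons. Both genes turn their starts to this stretch, and a noncoding RNA gene bounds it on each side. The peak at 2L:1638614-1638962 had 726.6 in the conservative list, with 305 in replicate 1 and 430 in replicate 2. That at 2L:1632707-1632962 had 635.5 (288 and 340.0), and that at 2L:1643258-1643579 had 588.1 (295 and 289). Replicate 2 was the higher in the first pair of these and replicate 1 by a little in the last. They lay 12475, 18420 and 7797 bp from chinmo, whose promoters, like that of RFeSP, held no conservative summit within 500 bp. A further member between the same genes, on the other side of the noncoding RNA gene next to RFeSP, had 132.3.

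Of the other 6 among the 10 strongest, 3 lay on 2R. The peak at 2R:22678176-22678563 lay between RYBP, the gene of a Polycomb complex subunit, and Ppa, an F-box protein gene, with a signal of 541.0. It had 179 in replicate 1 and 353 in replicate 2, the lowest ratio of all members. The peak at 2R:11565657-11565964 lay 37592 bp before the start of en, the segment polarity gene engrailed, and 11683 bp from tou, a gene of a chromatin remodelling protein. Its signal was 525.6, with 363 in replicate 1 and 165 in replicate 2, so the replicates differed here in the opposite direction. The peak at 2R:22802842-22803101 lay in a short stretch between the ends of blw, an ATP synthase subunit gene, and CycB, a mitotic cyclin gene, with 455.0 (202 and 249). The remaining 3 had like values in both replicates. The peak at 2L:2202276-2202527 between COX7AL2 and CG31668 had 498.6 (222 and 269), that at 3R:14053449-14053713, 3341 bp before foxo, a transcription factor gene of insulin signalling, had 469.9 (237 and 235), and that at 3L:11418287-11418463 before CG7560 had 443.8 (261 and 202).

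Intergenic stretches are called gaps here, and members lay in a small share of them. Of 3195 gaps with eligible sequence, 252 (7.89%) held a member. Of these, 66 held 2 or more and together 176 of the 362 members (48.6%). Members of a gap need not be separate sites, since 24 pairs of members overlapped. In some gaps with 2 members, such as 2L:885142-897452, the summits were only 200 bp apart. Gaps with a member had a median of 10.2 kb of eligible sequence and those without 2.94 kb, so longer gaps held members more often. Members were not closer to other peaks than the rest of the list. Another conservative summit lay within 5000 bp of 50.6% of them, against 54.8% of all peaks and 55.2% of distal intronic ones. The most in any gap was 6, reached 3 times. In the RFeSP to chinmo gap (2L:1626022-1646931) the 3 strong peaks named above stood beside weaker ones of 107.7, 93.5 and 74.5. In the gap from hng3 to CG13898 (3L:770463-803426) 1 peak of 427.0 (196.5 in replicate 1, 237 in replicate 2) stood beside peaks of 152.0, 101.3, 82.6, 79.7 and 15.6. In the gap from CG44362 to CG7560 (3L:11406095-11425157) all 6 were above the median of the members, with 443.8, 312.0, 211.0, 175.3, 138.4 and 131.6, and the strongest pair had summits 207 bp apart. Gaps with 5 members lay between scyl and Dyro and between ems and Art9. Members of 1 gap share the same flanking genes and are not independent of each other.

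**Figure D2:**
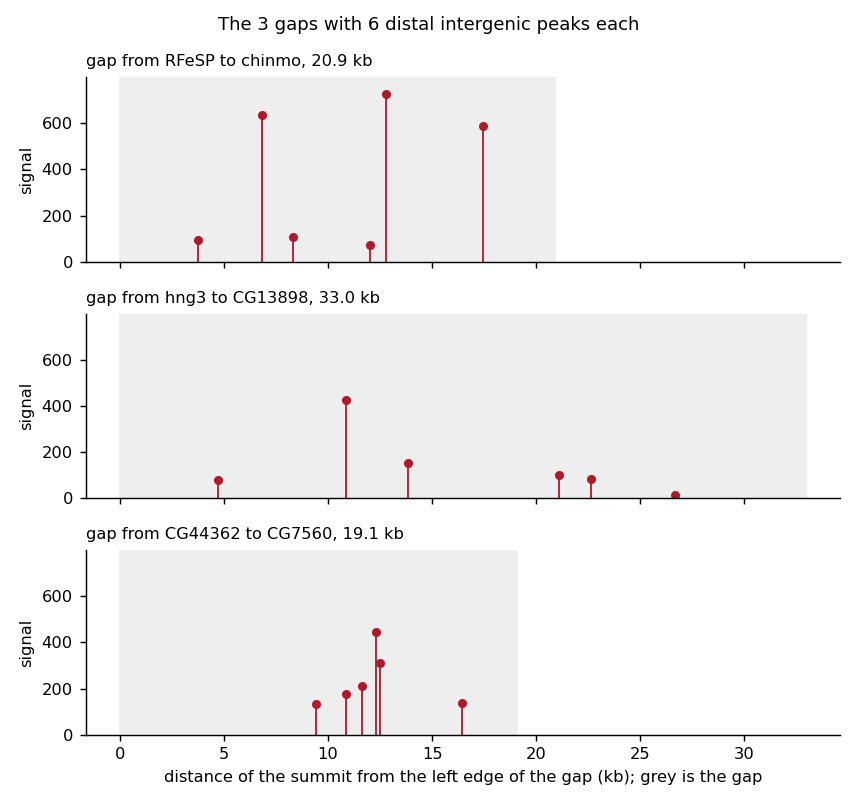
Signal of each distal intergenic peak in the 3 gaps that held 6 each, against the distance of the summit from the left edge of the gap in kb. The grey area is the gap and each stem is 1 peak. In the gap beside chinmo, 3 of the peaks stand between 588.1 and 726.6, and in the gap beside hng3 1 peak of 427.0 stands above the others.

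Density was set beside the way the flanking genes face. Gaps between the starts of both protein-coding neighbours had 14.7 members per Mb (11.8 to 18), those between both ends 14.3 (11.7 to 17.4) and those between a start and an end 10.6 (9.06 to 12.3), and the 3 intervals overlap. These groups held 91, 103 and 168 members.

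Genes beside a member were read by lists of regulators, neuronal genes and other gene families, each gene counted when it was the nearest protein-coding gene on either side of an eligible gap. Over all protein-coding genes, 440 of 4232 beside such a gap had a member in it (10.4%). Segmentation genes, which divide the embryo along its length, had 13 of 27 (48.1%, 28.7 to 68.1), and the density in gaps beside them was 38.9 members per Mb (25.2 to 57.5), against 11.7 overall. The strongest members beside them were the one at en described above and 3R:4341277-4341453, 3659 bp beyond the end of hkb, a terminal gap gene, with 276.4 (182 in replicate 1 and 94.8 in replicate 2). Other genes of the list beside members were cad, ems, gt, hb, hry, oc, opa, ptc, slp1, slp2 and wg. At ems, a homeodomain gene of the head and of neurons, 7 members lay in its gaps with signals from 94.2 to 231, and at hry, a pair-rule repressor gene, 4 with signals from 71.7 to 136.

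Genes of neuronal identity transcription factors had 14 of 33 (42.4%, 25.5 to 60.8) and a density of 44 per Mb (29.9 to 62.5). The strongest members lay beside hth, a homeodomain cofactor gene of Hox proteins (3R:10665050-10665272, signal 326.8, 208 in replicate 1 and 122 in replicate 2), and beside zfh2 on chromosome 4. The rest were beside Dr, Ptx1, Rx, ems, exex, grn, nub, pdm2, toy, tup, vvl and zfh1. The 7 members at ems count in this list as well as among the segmentation genes. At exex, a homeodomain gene of motor neurons, 3 members ranged from 121 to 159, and at Dr, a homeodomain gene of neuroblast columns, 3 ranged from 76.3 to 128. Proneural and neuroblast genes had 5 of 13 (38.5%, 13.9 to 68.4) and 33.6 per Mb (15.4 to 63.8). Of the 9 peaks behind this density, 4 lay in 1 gap beside pros, with signals down to 2.84, so they are not independent counts. Beside pros, which encodes a homeodomain protein handed to the daughters of neuroblasts, 3R:11261150-11261539 had 208.7 (149 and 74.3), at a distance of 67135 bp from the gene and next to the noncoding RNA gene cherub. Beside SoxN, a group B Sox gene, 2L:8834811-8835200 had 163.6 (70.8 and 85.4).

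Hox genes, which set the identity of segments, had 4 of 8 beside a member, Antp, Dfd, Scr and abd-A, with a density of 58.2 per Mb that rests on 6 peaks (21.3 to 127). Of the 6 peaks, 3 lay within 2223 bp in 1 gap beside Antp and 2 in the gap between Dfd and Scr, so they are not independent counts. The strongest of them, 3R:6805933-6806322 between Dfd and Scr, had a signal of 126.3 (replicate 1 at 78.1, replicate 2 at 49.9). Genes of the NK, Iroquois, Bar and T-box families had 9 of 20 (45%, 23.1 to 68.5), but their gaps were long, at 35.2 kb of eligible sequence per gene, and the density of 17.1 per Mb (8.81 to 29.8) has an interval that covers the overall value. Here 3L:9025685-9026074, between the T-box genes Doc2 and Doc1, had 221.2 (118 and 99.3). The gaps beside mid, another T-box gene, held 6 members from 77.1 to 140.

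Among mesoderm and muscle genes 4 of 15 had a member (26.7%, 7.79 to 55.1), with 23.9 per Mb (6.51 to 61.2). They were how, zfh1 and the FGF ligand genes pyr and ths, which share 1 peak. The peak beside zfh1, 3R:30789392-30789781, had 108.8 (74.3 in replicate 1 and 37.9 in replicate 2), and the peak between pyr and ths, 2R:11738503-11738892, had 90.0 (41.4 and 44.5). Tracheal and epidermal genes had 3 of 11 (27.3%, 6.02 to 61), with 33.3 per Mb (13.4 to 68.7) from 7 peaks. They were ss, a bHLH-PAS gene, rib, a BTB gene of tracheal growth (2R:19263572-19263961, signal 183.0), and vvl, a POU gene also in the neuronal list (3L:6816235-6816624, signal 180.9). The intervals of both shares cover the overall 10.4%, while the density interval of the tracheal list lies above the overall 11.7 per Mb. Of its 7 peaks, however, 3 lie in 1 gap beside rib and 3 beside vvl, so they are not independent counts.

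Genes of neuronal wiring and synapses were read in 3 lists. Axon guidance and wiring receptor genes, the process for which Sequoia is known, had 7 of 41 (17.1%, 7.15 to 32.1) and 11.9 per Mb (5.71 to 21.9), next to the overall 11.7. The strongest lay beside caps, a leucine-rich repeat receptor gene (3L:13197541-13197930, signal 140.5, 73.3 in replicate 1 and 69.6 in replicate 2), and 199 bp beyond the end of Drl-2, a Ryk family receptor gene (2R:13054852-13055241, 104.4, 51.9 and 44.1). The others were beside Dscam3, Sema5c, beat-VI, drl and robo2, with highest signals from 80.3 to 94.3. The dpr and DIP genes, whose cell surface proteins pair neurons, had 1 of 27 (3.7%, 0.0937 to 19), dpr17 with 150.5, and 1.65 per Mb (0.0418 to 9.21). Synaptic, transmitter receptor and ion channel genes had 1 of 32 (3.12%, 0.0791 to 16.2), the dopamine receptor gene Dop1R2 with 78.5, and 3.52 per Mb (0.0891 to 19.6). Of the 3 lists, the dpr and DIP list alone had a density interval below the overall value, and the intervals of all 3 shares cover the overall 10.4%.

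For signalling genes the counts were small. Signalling ligand genes had 5 of 21 (23.8%, 8.22 to 47.2) but 10.9 per Mb (2.25 to 31.8), since wg and Wnt4 share 1 peak (2L:7295883-7296272, signal 133.0) and pyr and ths another. Of the genes of the Notch pathway 1 of 10 had a member, the ligand gene Ser, with 153.1 at 3R:27208986-27209375 (92.6 in replicate 1, 56.1 in replicate 2). Over these 12 lists together, 60 of 244 genes had a member in a gap beside them (24.6%, 19.3 to 30.5), with 18.4 kb of eligible sequence per gene against 7.34 kb over all genes, and 21.2 members per Mb (17.1 to 25.9).

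Families of ribosomal protein, chemosensory receptor and cuticular protein genes were read as well. Of the cytoplasmic ribosomal protein genes 1 of 19 had a member (5.26%, 0.133 to 26), RpLP0 with 73.7, at 1.97 per Mb (0.0498 to 11). The interval of the share covers the 10.4% over all genes. These genes had 26.8 kb of eligible sequence per gene, against 7.34 kb over all genes. Odorant, gustatory and ionotropic receptor genes had 6 of 75 (8%, 2.99 to 16.6) and 9.04 per Mb (3.9 to 17.8), led by Or67d, a pheromone receptor gene, with 219.5, and Or85b with 132.7. Cuticular protein Cpr genes had 4 of 24 (16.7%, 4.74 to 37.4) and 32 per Mb (8.72 to 82) from 4 peaks, led by Cpr51A with 128.2 and Cpr65Eb with 90.8. The wide interval for the Cpr genes covers the overall density.

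**Figure D3:**
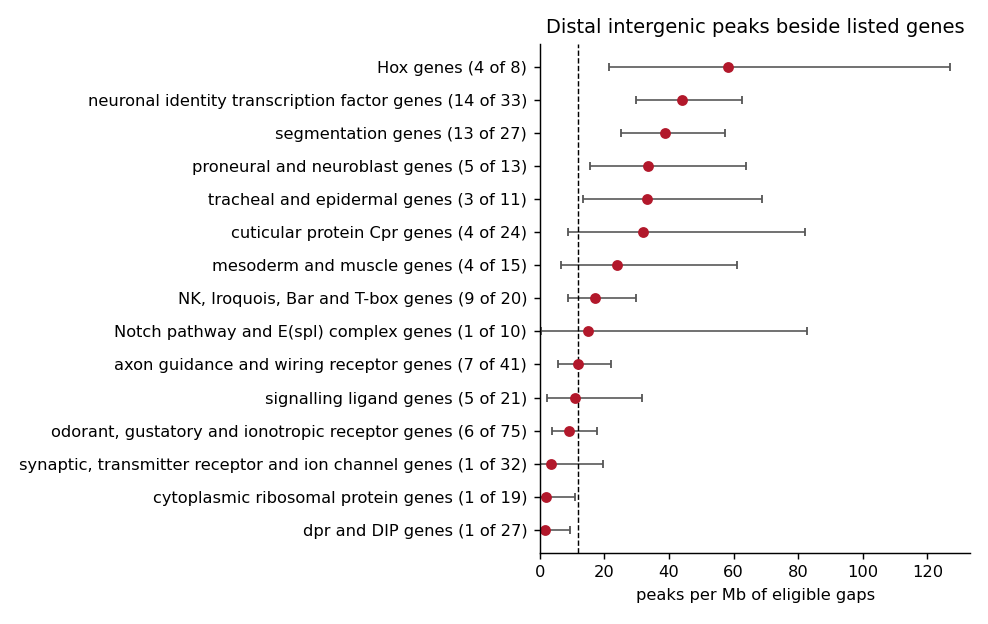
Density of distal intergenic peaks, in peaks per Mb of eligible sequence in gaps beside the genes of each of 15 lists, with exact Poisson 95% intervals. The dashed line is the 11.7 per Mb over all protein-coding genes, and brackets give the genes with a peak in a gap beside them of those beside an eligible gap. The intervals of the Hox, neuronal identity, segmentation, proneural and tracheal lists lie above the line, and those of the dpr and DIP and ribosomal protein lists lie below it.

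Genes beside a member also had a Sequoia peak at their own promoter more often. Of the 440 protein-coding genes beside a member, 100 had a conservative summit within 500 bp of a TSS (22.7%, 18.9 to 26.9), against 13.8% of all protein-coding genes. Of the 3792 genes beside an eligible gap without a member, 444 did (11.7%, 10.7 to 12.8). Counted by gaps, 145 of the 252 with a member had no such peak at either flanking gene, 95 had it at 1 and 12 at both. Within the 12 lists, 31 of 60 genes beside a member had a promoter peak (51.7%), against 45 of the 184 without a member (24.5%). The single lists went both ways. The segmentation genes beside a member had it in 11 of 13, the exceptions being ptc and wg, against 9 of 14 without a member, and the neuronal identity genes in 10 of 14 against 9 of 19. Proneural genes had it in 3 of 5 against 1 of 8. In the NK, Iroquois, Bar and T-box list it was 4 of 9 against 7 of 11, in the axon guidance list 1 of 7 against 8 of 34, and among Hox genes 2 of 4 in both. Receptor and Cpr genes had no promoter peak with or without a member.

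Fewer distal intergenic peaks than other peaks were in the lists called on each replicate alone. In replicate 1's own thresholded list 219 of the 362 were overlapped (60.5%, 55.3 to 65.6), against 73.6% of all conservative peaks. In replicate 2's own list, which is the shorter, 184 were (50.8%, 45.6 to 56.1), against 59.7%. Both lists held 135 (37.3%, 32.3 to 42.5), against 49.8% of all conservative peaks and 45.5% (42.1 to 48.8) of the distal intronic ones. A further 84 were in replicate 1's list alone, 49 in replicate 2's alone and 94 in neither. Signal moved with this share. Of the 51 members with a signal of 200 or more all were in both lists, of the 93 between 100 and 150 45 were (48.4%, against 47.1% of all peaks in that range), and of the 165 between 60 and 100 7 were (4.24%, against 5.38%). Within ranges of signal the share of distal intergenic peaks was thus close to that of all peaks, except under 60, where it was 4 of 19 (21.1%) against 36.5%.

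Replicate signals could be set side by side for 323 members that had a summit within 100 bp in each replicate's own ranked list (89.2%, against 86.9% of all peaks). Of the 323, 213 were higher in replicate 1 and 110 in replicate 2. Medians were taken over all members with a value in the replicate, which 22 lacked in replicate 1 and 33 in replicate 2. The median was 57.0 in replicate 1, against 68.4 for all conservative peaks, and 49.9 in replicate 2, against 56.2. No rescaling between the libraries is known, so ratios were read relative to the median log2 ratio of all peaks, 0.20. On that scale the members had a median of 0.03, the middle of the distribution ran from -0.36 to 0.41, and 303 of 323 were within 1. The distal intronic peaks had a median of 0.00 with -0.34 to 0.37, so the classes lay close together.

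**Figure D4:**
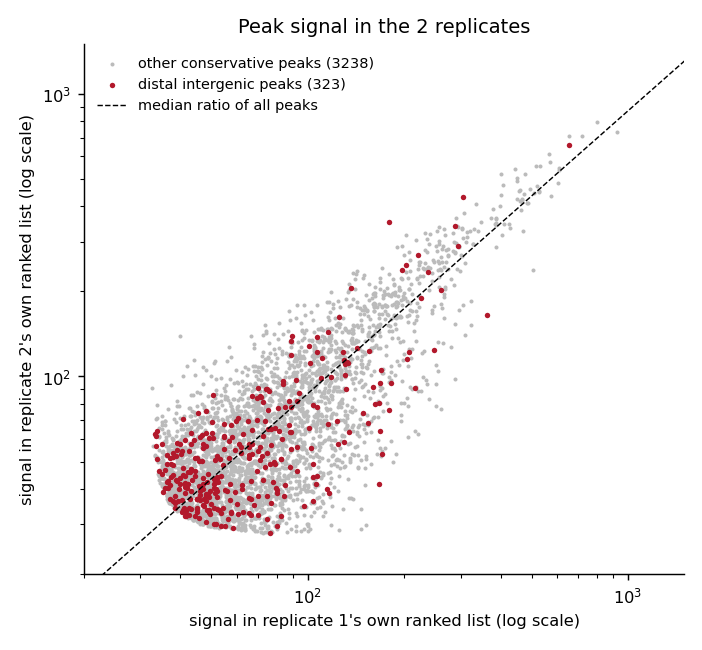
Signal of each peak in replicate 1 (x axis) and replicate 2 (y axis), both on log scales, for 323 distal intergenic peaks (red) and 3238 other conservative peaks (grey) that had a summit within 100 bp in both own ranked lists. The dashed line is the median ratio of all peaks. The strongest distal intergenic peak stands at 652 and 661, and the weaker ones spread to both sides of the line.

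The ratio between the replicates moved with base composition. In the 103 members with at most 30% GC in the summit window, the median log2 ratio of replicate 1 to replicate 2, not centred, was 0.02, with 54 higher in replicate 1. It was 0.11 over 100 members with GC above 30 and up to 40% and 0.35 over 65 members up to 50%. In the 55 members above 50% it was 0.80, and 52 of these were higher in replicate 1. Over all conservative peaks the medians in the same 4 ranges were -0.03, 0.12, 0.48 and 0.77, so the members followed the list. Whether base composition plays a part in the differences between replicates was not tested, and it is given here beside each of the widest differences.

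**Figure D5:**
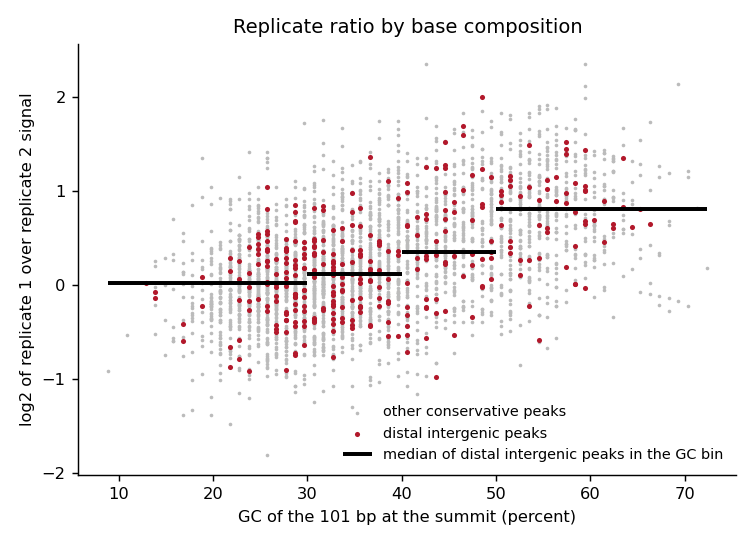
Log2 ratio of replicate 1 to replicate 2 signal, not centred, against the GC percent of the summit window, for distal intergenic peaks (red) and other conservative peaks (grey). Black lines are the medians of the distal intergenic peaks in 4 ranges of GC, which go from 0.02 at up to 30% to 0.80 above 50%.

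The 3 highest ratios were at Or67d, ph-d and HGTX. The peak at 3L:10279473-10279862, between Or67d and CG12362, had 167 in replicate 1 and 41.7 in replicate 2, a log2 ratio of 2.00 at 48.5% GC. The peak at X:2125537-2125926 between ph-d and ph-p, the tandem polyhomeotic genes of the Polycomb group, had 171 and 53.1, a log2 ratio of 1.69 at 46.5% GC. Both are in the lists of both replicates. The peak at 3L:14578838-14579227 between CG42758 and HGTX, a homeodomain gene of motor neurons, had 116 and 38.7, a log2 ratio of 1.59 at 46.5% GC, and was in replicate 1's list alone. The lowest ratios were at the RYBP peak given above (-0.98, at 43.6% GC), at 2L:5426887-5427276 between H15 and mid with 33.9 and 64.2 (-0.92, at 23.8% GC), and at 2L:19252429-19252818 between drl and CG31797 with 33.2 and 62.6 (-0.91, at 27.7% GC). The last pair were in replicate 2's list alone.

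Summit sequences of the members were AT-rich as in the rest of the list. The median GC was 35.6% for members and 35.6% for other peaks. In 107 members (29.6%) GC was at most 30%, a range that held 14.7% of the eligible intergenic windows of the same length, while 67 members (18.5%) and 18.2% of windows were above 50%. The summit was in soft-masked repeat sequence in 89 members (24.6%), against 30.5% of eligible bases, and 2 summits lay in an annotated transposable element.

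A set of 9 motifs was searched on both strands of the summit window, and 3 of them were present in a larger share of members than of eligible windows with an interval above the share of windows. GAGAGA, to which the GAGA factor binds, was in 29 members (8.01%, 5.43 to 11.3), against 3.48% of the 306041 eligible windows and 7.36% of other peaks. AGATAA was in 32 (8.84%, 6.13 to 12.2), against 5.81% and 7.65%, and ACAGTG in 22 (6.08%, 3.85 to 9.06), against 3.57% and 7.36%. The eligible windows were not matched to the members in base composition. At most 30% GC was present in 29.6% of members and 14.7% of windows, and whether this plays a part in the shares was not tested. The GATA core was in 12 of the strongest 90 members and in 4 of the weakest 90, and the GAGA word in 10 and 6. ACAGTG was in 4 and 6, and with counts this small no direction with signal is read for any of the 3. CAGGTG, a core of the Snail and Zeb type, was in 6 (1.66%, 0.611 to 3.57) against 3.06% of windows, and CAGGTA, the core of the early factor Zelda, in 5 (1.38%, 0.45 to 3.19) against 2.27%. The E-box CAGCTG was in 13 (3.59% against 3.38%), the homeodomain core TAATTA in 27 (7.46% against 7.12%), CACACACA in 11 (3.04% against 1.89%) and TATCGATA, the core of the DREF site, in 2 (0.552% against 0.215%). In 233 members (64.4%) none of the 9 was present. The motifs can overlap other words, and a match is a match of letters, not a binding site.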

How the data were processed

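Peaks were taken from the lists that the authors deposited on dm6. The authors' signal, in the peak caller's own units, their score, at least 830 in the conservative list, and the global IDR (irreproducible discovery rate) as -log10 in the deposited ranked lists were used as given. The aligner and peak caller are not given in the sources used here, read depth is unknown, and of each ranked list 8 other columns went unused. Positions, counted from 1, were set against Ensembl BDGP6.54, release 115, and the sequence of the Release 6 reference, with Python 3.11.15, pandas 2.3.3 and scipy 1.17.1, after the functions had been tested on simulated data. The replicate columns of the list made between the replicates carry no sample name, so replicate values came from each replicate's own ranked list, from the overlapping peak whose summit lay within 100 bp, a limit chosen after seeing the data. Overlap needed 1 bp. The conservative list leaves out 117 ranked peaks past its score, 6 of them distal intergenic, and 1 conservative peak off the arms was left out.

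The members and gene lists were chosen with earlier results of these data known, so no list is independent evidence of its share. Symbols Delta, hry and dysf were corrected in the lists after the files were read. Named are the 10 strongest members, the farthest from a TSS, the 3 gaps with the most members, up to 2 genes of each list beside the strongest members, all on chromosome 4, the 3 highest and 3 lowest replicate ratios, and the peaks at the 2000 bp limit. Other genes of the lists, and the stretches beside Psc and Su(z)2, were chosen after values were seen, as were the limits of 60 for weak signal and 400 bp for neighbours and the ranges of signal and GC. The 95% intervals are exact, by order statistics for medians, by Poisson limits for densities and by the Clopper-Pearson method for shares.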

Additional observations from a re-analysis of the deposited data

How the results depend on the processing

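No paired analysis was possible because there is 1 group, with no second condition to pair. Of 67 alternatives, 50 kept the value within the 95% interval of the value reported (for the number of members, within 1.5 times), and 17 moved it. With the distance set at over 5000 bp there were 164 members at 7.49 per Mb, and at over 1000 bp 13.8 per Mb. At a global IDR of 0.001 there were 133 members, of which 87.2% were in both own lists (90.2% of all peaks), and 13.1% of the 12 lists' genes had a member beside them (4.3% of all genes). The list from pooled replicates gave 15 per Mb, with 27.8% of members in both own lists (38.6% of all peaks). Own ranked lists at a global IDR of 0.05 held 60.5% of members in both (67% of all peaks). A promoter window of 200 bp gave 16.6% of flanking genes with a promoter peak (9.58% of all genes), and 100 bp on either side of the summit gave GAGAGA in 16.9% of members, 15.6% of other peaks and 6.89% of eligible windows. With own thresholded lists the median relative log2 ratio was 0.11. Leaving out either replicate, through the own list of the other, gave 209 to 289 members, a median signal of 0.875 to 1 times that of all peaks (0.846 in the conservative list), 16 to 21.3% of the 12 lists' genes with a member (6.17 and 8.32% of all genes), and 15.7 to 28.4% of flanking genes with a promoter peak (10.1 and 14.3% of all genes). In replicate 1's own list the 289 distal intergenic peaks of that list thus had the median of all its peaks, at 69.5 and 69.5. The members of the conservative list with a value in replicate 1 had a median of 57.0, against 68.4 for all conservative peaks. In replicate 2 it was 49.9 against 56.2. The cause of the moves between alternatives was not tested, beyond that stricter lists hold fewer peaks. Depth is unknown, which limits any reading of members under a signal of 100, where few were found in both own lists.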

Other observations

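Words outside the 9 motifs were counted after seeing the data, so the following ranks were chosen by their values. Of the 2080 distinct words of 6 bases, with both strands joined, those in at least 18 members were ranked by the ratio of their share of members to their share of eligible windows. The highest ratios were of C-rich words. CCACCC was in 37 members (10.2%), against 3.75% of eligible windows and 6.5% of the other conservative peaks. CAACCC was in 31 (8.56%, against 3.18% and 5.14%) and CACCCC in 27 (7.46%, against 2.75% and 5.81%). The words share letters and can be present in the same window. ACACTG followed with 31 members (8.56%, against 3.58% and 6.29%).

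Ranked peaks past the score of the conservative list but absent from it included 6 distal intergenic ones. The strongest, 2L:12011066-12011455 between Rh5 and Wdr81, had a signal of 270.3, and 3 lay between Hacd1 and Rh5, with 107.5, 82.0 and 80.5. The other 2 lay between tup and ssp3, with 73.0 and 3.75.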
